A study of Drosophila melanogaster with 2 samples.

Results

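Neuroblasts are the neural stem cells of the fly. They divide asymmetrically into a new neuroblast and a smaller ganglion mother cell, and proteins sorted to the basal cell cortex pass fate information to the smaller daughter. A set of 9 genes of this process was examined for binding of Daughterless (Da), the broadly expressed basic helix-loop-helix (bHLH) protein that pairs with proneural proteins on E-box DNA, the hexamer CANNTG. They were picked for their known function, with earlier results of these data known, and are 9 of 13945 protein-coding genes on the chromosome arms. Of these, insc, mira, pros, brat and numb act in the division itself, and wor, esg, dpn and grh encode transcription factors of the neuroblast.

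The assay was ChIP-seq, in which chromatin bound by a protein is precipitated and sequenced. Its material was intact embryos of both sexes collected over 0 to 24 h of development, from a transgenic Drosophila melanogaster strain with da fused at its C-terminus to green fluorescent protein (GFP). The antibody was against GFP and the chromatin was sonicated to 200 to 800 bp. There was 1 group of 2 biological replicates, numbered 2 and 3, and no other genotype, stage or treatment, so the labels give no control group to compare with. Whether the strain kept its endogenous da is not given in the labels. The tissue was the whole organism, and strong binding in few cells and weak binding in many cannot be told apart. Binding data show no expression, so the role of the genes in neuroblasts could not be checked here.

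Each deposited region has a summit and a signal, the height that the authors' caller gave it. The authors' thresholded list held 1941 regions of dm6 with signals from 64.2 to 877 (median 88.2). Relaxed lists, which reach into background, held 30000 regions each, 1 for either replicate and 1 pooled. Pooled signals are not on the scale of the replicates' lists. The signals of the replicates are set side by side as deposited, with no scaling between them, and the depth of the libraries is unknown. A region was assigned to a gene when its summit lay in the gene span or within 5000 bp of it, a rule that also takes in 28 neighbouring protein-coding genes. A region is called high-ranking in a replicate when it is among the 1941 highest of that replicate's own list.

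Da peaks were found at most of the 9 genes, and brat and insc held the strongest. A thresholded summit was present at 7 genes (insc, mira, pros, brat, numb, wor and grh) and absent at esg and dpn, against 28.4% of all protein-coding genes. Long genes catch more summits. All 5 members with a span of 10 kb or more (insc, pros, brat, numb and grh) had a thresholded summit, where 41.5% of all such genes did, and so had 2 of the 4 shorter ones, mira and wor, where 26.2% of all shorter genes did. The median over the 9 genes of the highest pooled signal was 92.3, with a range from 32.4 at dpn to 237 at brat. The same median was 45.95 over all 12394 genes with a region, 57.3 over those of 10 kb or more and 44.1 over shorter ones. These shares and medians describe the genes and are given without a test.

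**Figure D1:**
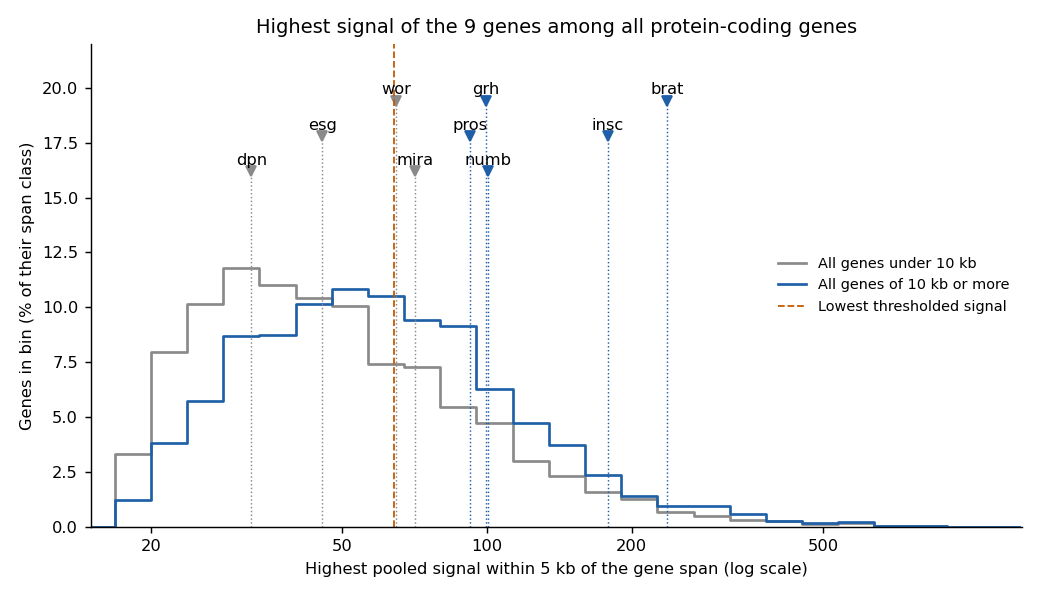
Highest pooled signal within 5 kb of each of the 9 genes (triangles and dotted lines, log x axis) above the distribution of the same value over all protein-coding genes of under 10 kb (grey) and of 10 kb or more (blue), in percent of the class. The dashed line is the lowest thresholded signal, 64.2. dpn and esg lie below it, wor just above it at 64.8, and insc and brat far to the right at 178 and 237.

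The order of the genes was the same in both replicates at its ends and differed in between. The highest region of brat had a signal of 110.5 in replicate 2 and 126 in replicate 3, and was first in both. The gene insc was second in both, with 68.9 and 109.1, and dpn was last in both, with 19.7 and 18.2. Between them, replicate 2 ran grh (48.5), wor (39.0), mira (35.9), pros (34.0), numb (32.8) and esg (20.4). Replicate 3 ran numb (67.6), pros (60.1), grh (50.9), mira (34.9), esg (30.3) and wor (19.96). The last place of dpn was narrow, with esg close above it in replicate 2 and wor in replicate 3. In both, grh lay above mira, and esg lay below grh, mira, pros and numb. The order of grh, pros and numb, and that of mira against pros and numb, turned between replicates, so these neighbours are not separated. The gene wor moved from the fourth place to the eighth, and its 19.96 in replicate 3 is from a region at 15425292 with no pooled summit within 200 bp.

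The summits that carry these results are shown by sequence, to let the E-boxes be read in place. They are the plus strand of the Release 6 assembly, whose coordinates dm6 uses, credited to RefSeq. Each is centred on the summit of the strongest region of a gene, apart from mira, where 30 bases around the E-box are shown. Capitals mark matches on either strand to the motifs searched. The E-boxes searched were CAGCTG, then CAGATG, then CACCTG, which Snail-type proteins such as those of wor and esg bind, then CACGTG, and any other CANNTG. The others were GAGAG, the element of GAGA factor, then TATCGATA, that of DREF, then CAGGTA, that of Zelda, and finally ACCGGTT, that of Grainyhead, the product of grh. Every CAGCTG is also counted as a CANNTG.
brat, chr2L:19155122-19155222, intron: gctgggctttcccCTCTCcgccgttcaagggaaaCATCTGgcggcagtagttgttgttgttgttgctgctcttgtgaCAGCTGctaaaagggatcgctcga
numb, chr2L:9449669-9449769, before its internal start site: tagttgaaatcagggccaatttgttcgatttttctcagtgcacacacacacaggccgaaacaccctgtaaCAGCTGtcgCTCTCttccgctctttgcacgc
wor, chr2L:15425756-15425856, upstream: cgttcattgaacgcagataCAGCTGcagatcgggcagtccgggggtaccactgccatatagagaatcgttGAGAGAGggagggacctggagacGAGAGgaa
mira, chr3R:19935028-19935057, between its start sites: agacatagcctcCAGCTGgcacagcgagtg
pros, chr3R:11368863-11368963, intron: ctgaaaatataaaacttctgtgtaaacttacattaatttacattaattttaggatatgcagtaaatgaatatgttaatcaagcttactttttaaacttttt
esg, chr2L:15333516-15333616, upstream, not in the thresholded list: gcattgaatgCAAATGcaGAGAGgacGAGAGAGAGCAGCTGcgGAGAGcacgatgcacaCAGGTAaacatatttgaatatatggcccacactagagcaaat

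The 6 sequences do not cover all of the genes. CAGCTG stands in all of them but that of pros, whose window held none of the searched motifs and was 20.8% GC. Over all 13 thresholded summits at the 9 genes, CAGCTG was within 50 bp of the summit on either side at 5 (38.5%, Wilson 95% interval 17.7 to 64.5), against 10.5% of all thresholded summits. The 5 are the strongest summits of insc, mira, brat, numb and wor. Their CAGCTG centres lay 0.5 bp from the summit at insc and 4.5 bp from it at mira, and 22.5, 28.5 and 29.5 bp away at numb, wor and brat. The interval covers counting error over summits and not the spread between embryo collections. Here and below, intervals treat summits or regions of the same gene as independent, though 5 of the 13 summits were at brat. In a window of 51 bp the count was 3 of 13 (insc, mira and numb), against 6.03% of all thresholded summits.

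CAGCTG was also in the strongest pooled region of esg, 12.5 bp from its summit. That makes 6 of 9 genes whose highest region held it, against 9.10% of the protein-coding genes with a region; this count was made after the windows had been seen. The highest regions of pros, dpn and grh held none. Over all regions the share was nearer to the background. Among all 120 pooled regions at the 9 genes, CAGCTG was at 13 (10.8%), against 7.97% of all pooled summits. The DNA of the windows held 196 CAGCTG sites, or 6.33 per 10 kb against 4.58 over the chromosome arms, with 12.8 per 10 kb at mira and 12.2 at wor. Of these 196 sites, 13 (6.63%) lay within that distance of a pooled summit, against 4.16% of all sites on the arms. The windows also held more pooled regions, 3.88 per 10 kb against 2.24 over the arms. The part of this density in the difference was not tested.

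GC content moved with the motif. The 5 thresholded summits with CAGCTG had from 48.5% to 55.4% GC, and the 13 had a median of 48.5%, where all thresholded summits had 38.6%. Among all thresholded summits of 45% GC or more, 24.1% held CAGCTG, and among the 7 such summits at the 9 genes it was 5, a bound chosen after the data were seen. The part of GC content in the difference was not tested.

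Other motifs at the 13 summits were mixed. Any CANNTG was present at 9 (69.2%, interval 42.4 to 87.3), against 42.6% of all thresholded summits. Among all pooled regions at the 9 genes it was at 63 (52.5%), against 45.3% of all pooled summits. CAGATG, another E-box bound by bHLH proteins, was at 2, both at brat, against 6.18%. GAGAG was at 6 (46.2%, interval 23.2 to 70.9), against 13.1%, and 4 of the 6 also had CAGCTG (insc, brat, numb and wor). Among summits of 45% GC or more GAGAG was at 22.2% of all and at 5 of the 7. None of the 13 windows held CACCTG (5.31% of all thresholded summits), TATCGATA (2.52%), CAGGTA (2.32%) or ACCGGTT (0.412%). CACGTG was at none either.

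**Figure D2:**
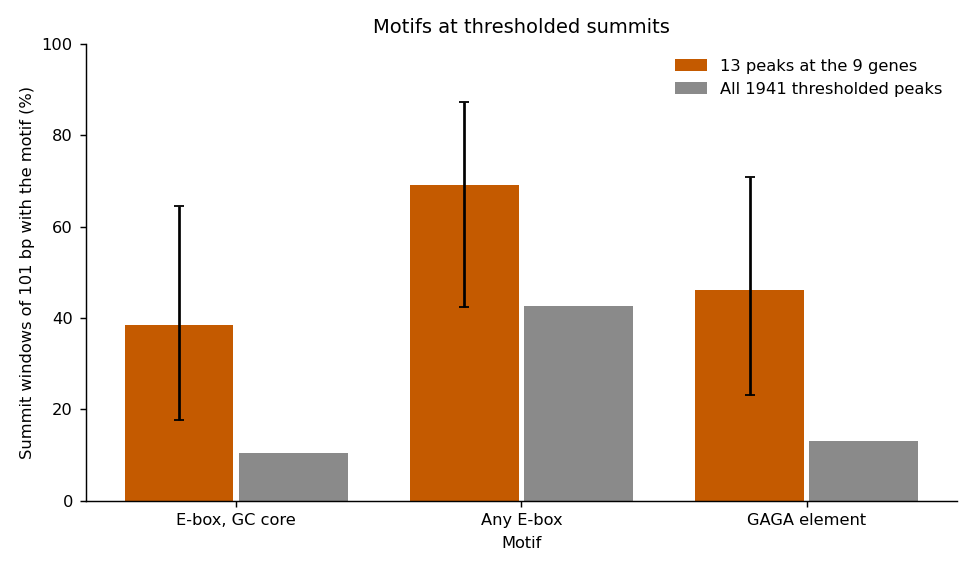
Share (percent) of summit windows, 50 bp on either side, with the E-box of GC core (CAGCTG), any E-box (CANNTG) or the GAGA element (GAGAG), for the 13 thresholded peaks at the 9 genes (orange, with Wilson 95% intervals) and all thresholded peaks (grey). The orange bars stand at 38.5%, 69.2% and 46.2%, and the grey ones at 10.5%, 42.6% and 13.1%.

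Among the genes of the division machinery, insc encodes Inscuteable, the apical adaptor that joins the Par polarity complex to the proteins that orient the spindle. The gene (FBgn0011674) spans 14.8 kb of 2R, 20821262 to 20836028 on the minus strand, and the gene sktl, which makes a phosphoinositide kinase, overlaps it on the same strand with a transcription start site (TSS) at the same position. Its strongest region, 20836466 to 20836604, had a pooled signal of 178 (68.9 and 109.1 in replicates 2 and 3), rank 179 of 30000. The summit lay 515 bp upstream of the shared TSS. The region was high in both replicates, at ranks 319 and 125. A region 75 bp downstream of the TSS had 34.1. The other thresholded summit was in an intron of insc, inside sktl, 5056 bp downstream of the TSS (75.0; 39.0 and 35.0). Of the 13 pooled regions at insc, the third was at 43.95, 1923 bp upstream, and 8 of the 13 had a summit within 200 bp in both replicates.

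Miranda, the product of mira, is the adaptor that carries Prospero and Brat to the basal cortex. The gene (FBgn0021776) is short, 3.32 kb at 3R 19931799 to 19935120 on the minus strand, and its whole span lies within the gene Hs6st. Its single thresholded region, 19934849 to 19935244, had its summit in the 5′ UTR, between the TSSs of mira, 73 bp downstream of the first and 49 bp upstream of the other. The signal was 70.9 (35.9 in replicate 2 and 34.9 in replicate 3), at rank 1495 of replicate 2 and 2004 of replicate 3, close to the bound of 1941 in both. The other 3 pooled regions were weak, from 19.9 to 28.6.

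Prospero, the cargo of Miranda, is the homeodomain protein that ends self-renewal in the ganglion mother cell. Its gene pros (FBgn0004595, 3R 11328480 to 11407627, plus strand) was the longest of the 9, at 79.1 kb. Regions were no denser there than elsewhere, at 2.24 pooled regions per 10 kb, as over the arms. None of the first 3 TSSs of pros had a pooled region within 500 bp, and both thresholded summits lay further in. The strongest region was in an intron 3875 bp upstream of the fourth TSS (92.3; 33.3 and 60.1 in the replicates, ranks 1767 and 566). A second thresholded summit was in the 3′ UTR, 20196 bp downstream of that TSS (68.0; 21.9 and 42.6). At the fourth TSS itself, 33 bp downstream, a region of signal 59.7 (32.0 and 34.3) fell below the threshold. A region of 62.5 at 11351105 lies within the genes KP78a and KP78b, and was the highest of the pros window in replicate 2.

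The basal determinant Brat is a repressor of translation that limits growth in the daughter cell. Its gene (FBgn0010300, 2L 19133816 to 19179758, plus strand, 45.9 kb) had 5 of the 13 thresholded summits and 34 pooled regions, 6.08 per 10 kb and the highest density of the 9. The strongest region, 19155118 to 19155260, was in an intron 3368 bp upstream of the gene's second TSS, with a signal of 237 (110.5 and 126), rank 82. The next was in an intron 663 bp upstream of the third TSS, 19165006 to 19165401, with 182 (73.7 and 96.5), rank 169. These were the 2 highest regions at the 9 genes, and both were high-ranking in each replicate. The window of the second held GAGAG and no E-box, at 32.7% GC.

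The other 3 thresholded summits at brat were weak and nearer to other genes. Polr1D, on the opposite strand, had the nearest TSS at 118 bp (67.6; 22.9 and 42.8), CG17568 at 155 bp (65.8; 29.6 and 34.0) and AsnRS at 58 bp (65.3; 36.1 and 24.0). None of the 3 was high-ranking in both replicates. The 3 annotated TSSs of brat had pooled regions of 48.5, 36.3 and 35.1 within 500 bp, all below the threshold. Its strongest region lay 3368 bp and its next 663 bp from the nearest TSS of brat.

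Numb, the inhibitor of Notch that is inherited on the basal side, is encoded by numb (FBgn0002973, 2L 9437469 to 9464184, plus strand, 26.7 kb). The gene has a TSS at its start and another 12361 bp inside. No pooled region lay within 500 bp of the first. The inner TSS had a thresholded region, 9449521 to 9449916, with its summit 111 bp upstream. The signal was 100.7, from 32.0 in replicate 2 and 67.6 in replicate 3, a log2 difference of 1.08 and the widest of the 13 summits in favour of replicate 3. It ranked 417 in replicate 3 and 1948 in replicate 2, just past the bound of 1941. In replicate 2 the highest region of numb was instead at 9454479, in an intron 4649 bp downstream of the inner TSS. That region had 63.1 in the pooled list (32.8 and 27.0), just under the threshold, and the third was at 42.1, 754 bp upstream of the inner TSS.

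**Figure D3:**
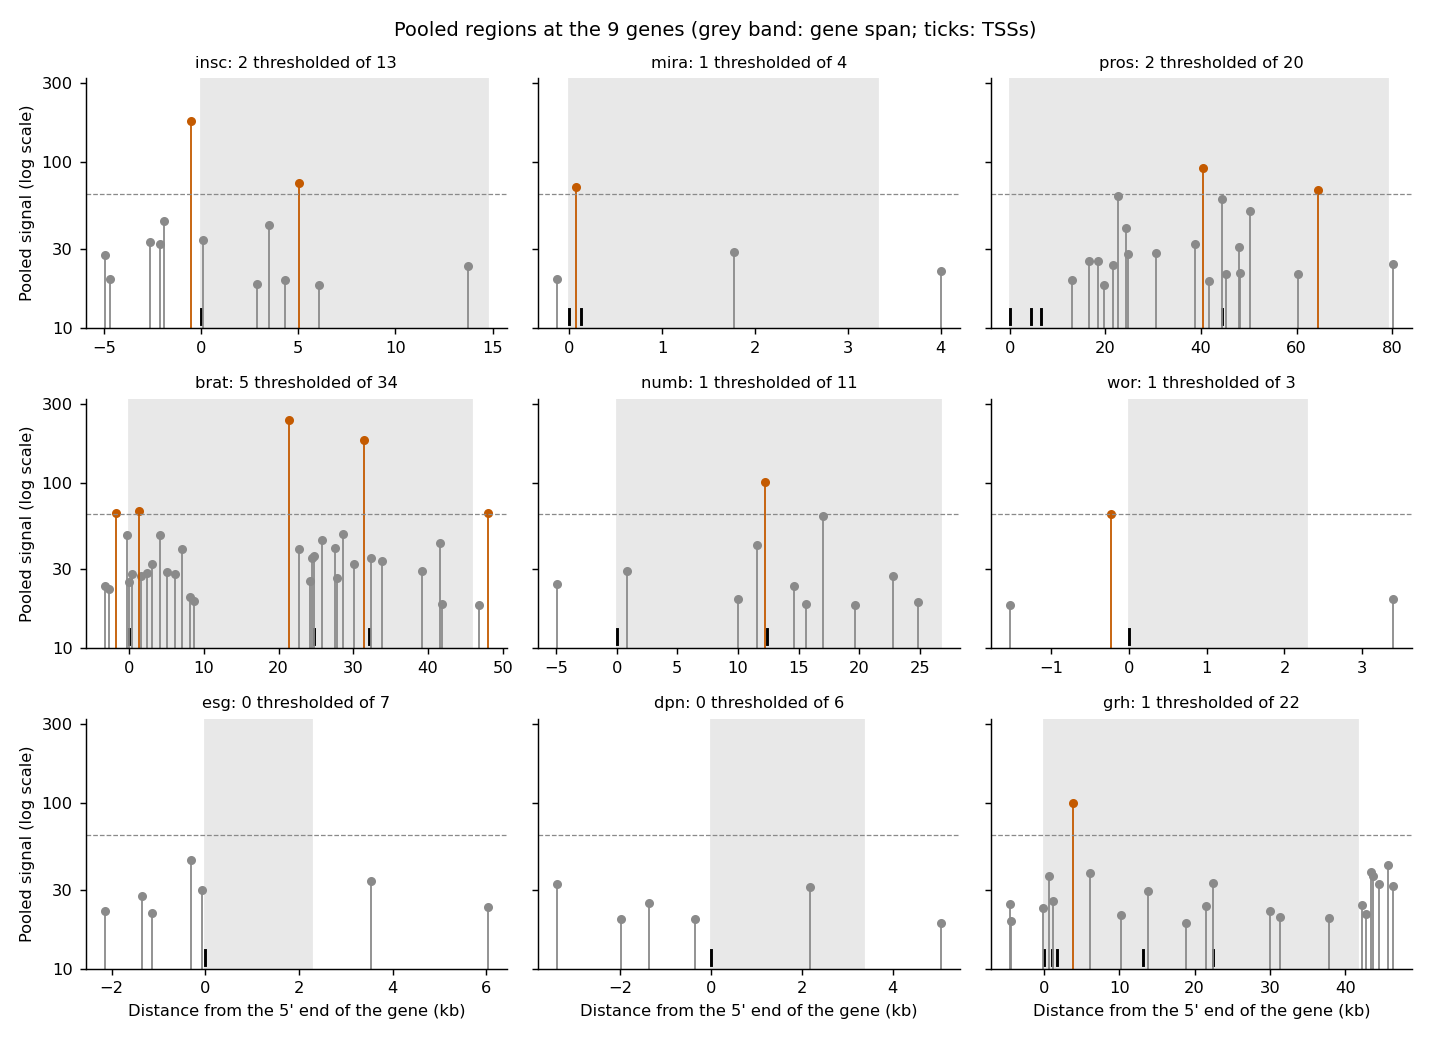
Pooled regions within 5 kb of each gene, plotted by distance of the summit from the 5′ end of the gene in the direction of transcription (kb) and by pooled signal (log scale). Orange marks thresholded regions, the grey band the gene span, black ticks the annotated TSSs and the dashed line the lowest thresholded signal. The peaks of brat at 237 and 182 and of insc at 178 stand out, and esg and dpn have no point above the line.

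Turning to the transcription factors, wor and esg encode Snail-type zinc finger repressors that neuroblasts use with Snail. The gene wor (FBgn0001983, 2L 15423297 to 15425580, minus strand) had 3 pooled regions, 1 of them thresholded. Its summit was 226 bp upstream of the TSS, with a signal of 64.8, rank 1911 of 1941 in the list. Replicate 2 gave 39.0, above its bound of 32.0, and replicate 3 gave 19.4, rank 8654 and below its bound of 35.4. The log2 ratio of replicate 3 to replicate 2, -1.0, was the lowest among the 13. By signal, the region was high-ranking in replicate 2 only. Its −log10 q was 3.53 in replicate 2 and 0.650 in replicate 3.

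The gene esg (FBgn0287768, 2L 15333866 to 15336138, plus strand) had 7 pooled regions, 5.70 per 10 kb, but none past the threshold. The strongest had a signal of 45.4, rank 4011, with its summit 300 bp upstream of the TSS. Replicate 3 had it at 30.3, rank 2793, and replicate 2 had no summit within 200 bp. In replicate 2 the highest region of esg was instead at the TSS, with 20.4, rank 5460. The second pooled region was at 33.9, 3543 bp downstream of the TSS.

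Deadpan, the product of dpn, is a bHLH repressor of the Hes family that keeps neuroblasts self-renewing. The gene (FBgn0010109, 2R 8228971 to 8232330, minus strand) had the lowest values of the 9. Its 6 pooled regions had signals from 18.9 to 32.4 and the strongest, rank 8565, was nearer to the TSS of the septin gene pnut than to its own. The region nearest to the dpn TSS, 357 bp upstream, had 19.9 and no summit within 200 bp in either replicate. CAGCTG was at 2 of the 6.

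The gene grh (FBgn0259211, 2R 17801132 to 17842820, plus strand, 41.7 kb) encodes Grainyhead, a factor of the epidermis and of late neuroblasts. It had 22 pooled regions and 1 thresholded summit, in an intron 2117 bp downstream of the nearest of its 5 TSSs. The signal was 99.4, and the replicates were close, at 48.5 (rank 746) and 50.9 (rank 858). The window held no E-box and was 27.7% GC. The next, at 42.2 and 38.4, lay past the 3′ end, nearer to the TSSs of olf186-M and Orai, and no pooled region at grh held CAGCTG.

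By the assignment rule, all 13 summits lay in a gene span or within 5000 bp of it. Of them, 7 were in introns of the member, 2 in UTRs, 3 upstream and 1 downstream, with no such shares over all thresholded summits given. Within 500 bp of any protein-coding TSS there were 6, against 55.1% of all thresholded summits, and within 500 bp of a TSS of the member itself there were 3, at mira, numb and wor. For 5 of the 13, at insc, pros and brat, the TSS of another gene was nearer. Counted by start site, 4 of the 20 TSSs of the 9 genes had a thresholded summit within 500 bp, of which 2 share the summit of mira, against 9.27% of all 19252 TSSs.

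The 3 strongest summits, at brat and insc, were high-ranking in both replicates, and of the other 10 it was those of pros (92.3) and grh. All 13 had a summit within 200 bp in both replicates' relaxed lists, as had 1928 of all 1941 thresholded summits. The thresholded list was itself derived from the relaxed lists, so this match does not set the 13 apart. At the same position, 5 of the 13 were high-ranking in both replicates (38.5%, Wilson interval 17.7 to 64.5), against 61.3% of all thresholded summits; they were at insc, pros, brat, where there were 2, and grh. There were 4 that passed the bound in replicate 2 only, at insc, mira, brat and wor, and 3 in replicate 3 only, at pros, brat and numb. The CG17568 summit at brat passed it in neither. The 13 had a median pooled signal of 75.0 against 88.2 for the whole list, and 5 of them were among its lowest 250. The median log2 ratio of replicate 3 to replicate 2 was 0.20 (SD 0.63, n = 13 summits), and over all matched thresholded summits 0.18 (SD 0.59).

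Counted by gene, 5 of 9 had a high-ranking region in each replicate (insc, pros, brat, numb and grh), against 21.3% of all protein-coding genes. These are the members with a span of 10 kb or more, and no such share for long genes alone is given. The regions of the replicates need not share a position in this count, and at numb they did not. In numb, pros, wor and esg the highest regions of the replicates had summits more than 200 bp apart. With replicate 3 alone, 5 genes had a high-ranking region and 8 summits did, and with replicate 2 alone 7 genes and 14 summits did. No share over all genes is given for a single replicate. Just inside the threshold stood wor (64.8) and the AsnRS summit at brat (65.3), and just outside it the regions of numb (63.1) and pros (62.5).

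**Figure D4:**
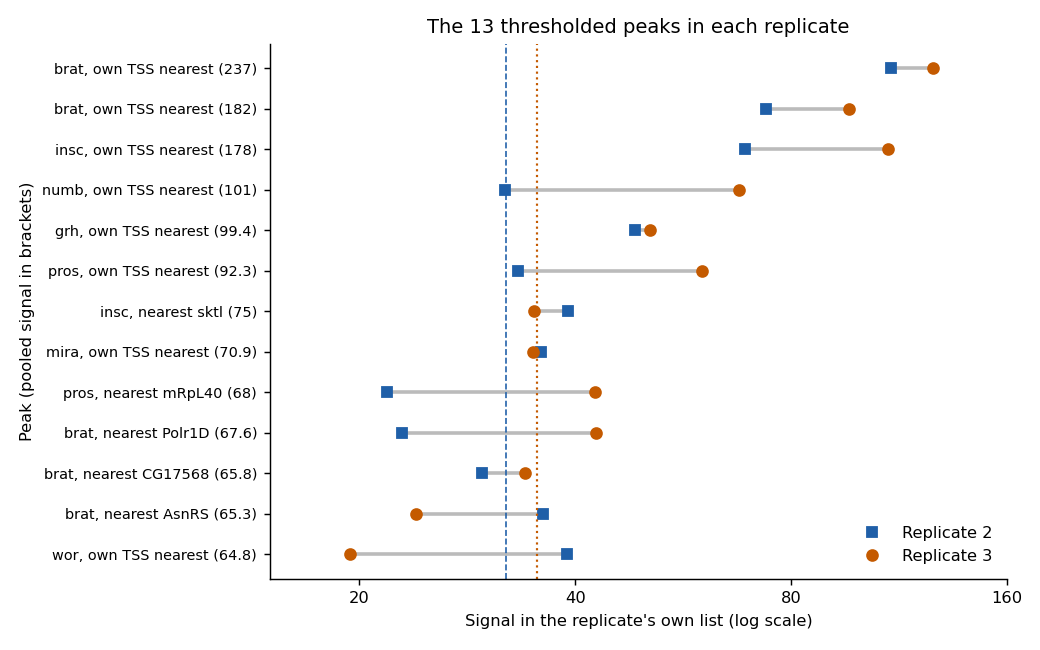
Signal of the 13 thresholded peaks in the list of replicate 2 (squares) and of replicate 3 (circles), on a log axis and ordered by pooled signal, in brackets. The dashed and dotted lines mark the lowest high-ranking signal of replicate 2 (32.0) and replicate 3 (35.4). The peaks of pooled signal 178, 182 and 237 lie right of both lines in both replicates, while wor lies right of its line in replicate 2 (39.0) and left of it in replicate 3 (19.4).

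Regions of the relaxed lists were denser around most of these genes than along the arms. The 9 windows, 309.5 kb in all, held 120 pooled regions, or 3.88 per 10 kb, against 2.24 over the arms, and the replicates gave 3.78 and 3.84. These 120 include the 13 thresholded regions, and 71 had a TSS of the member nearest. The windows also take in neighbouring genes, and no density around other genes is given. Pooled densities ran from 2.24 at pros and 2.44 at wor to 5.25 at insc, 5.70 at esg and 6.08 at brat. Of the 120 regions, 59 (49.2%, Wilson interval 40.4 to 58.0) had a summit within 200 bp in both replicates, against 41.8% of all pooled regions. The share ran from 25% of 4 regions at mira to 100% of 3 at wor. By place, 57 were in introns, 8 in coding exons, 13 in other exons, 27 upstream and 15 downstream, with no such shares over all pooled regions given.

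**Figure D5:**
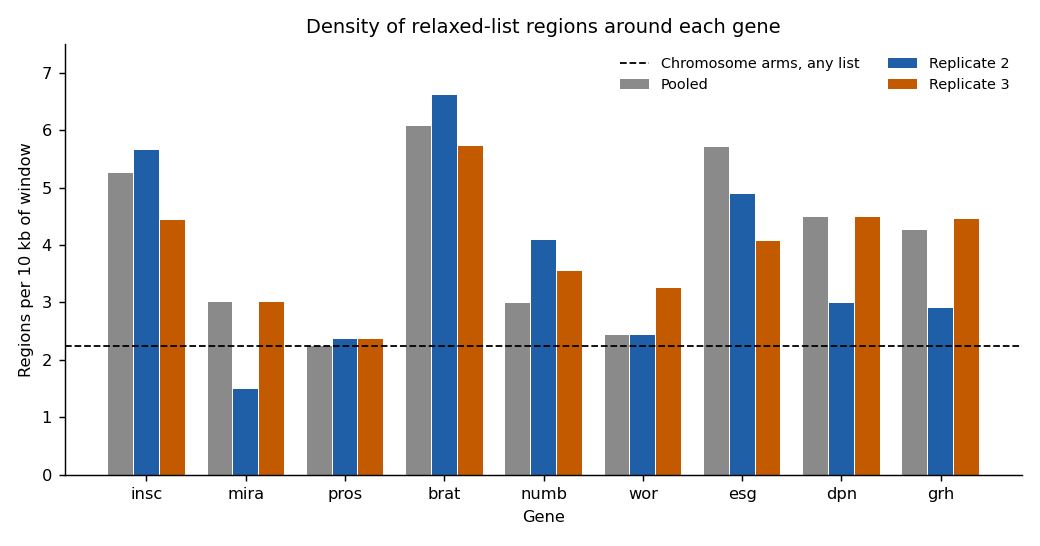
Relaxed-list regions per 10 kb of window (gene span plus 5 kb on either side) for each gene, in the pooled list and in each replicate's list. The dashed line is the density over the arms, 2.24, which is the same for each list since each holds 30000 regions. The bars of brat, from 5.72 to 6.61, are the highest, and those of pros lie near the line.

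Partner genes of the same process were counted in 4 lists, to be read against the shares over all protein-coding genes: 28.4% with a thresholded summit within 5 kb, 41.5% of those of 10 kb or more and 26.2% of shorter ones. Differences between the lists were not tested. Of 12 genes of apical polarity and spindle orientation, 8 had a thresholded summit within 5 kb, and 8 were 10 kb or longer. The highest were cno (299.99; 133 and 165), whose product is an actin-binding adaptor at junctions and in the spindle pathway, par-6 (111.4, with the TSS of CG8188 nearest), a Par complex subunit, and loco (104.4), a regulator of G proteins. The genes baz (73.6), aPKC (98.3), scrib (66.3), dlg1 (89.2) and Cdc42 (90.8) also had such a summit, those of aPKC and Cdc42 nearer to the TSSs of ckn and Mer, while pins, Galphai, mud and l(2)gl did not. The median of the highest signal was 81.4.

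Of 8 genes for localising basal determinants or modulating Notch, 3 had a thresholded summit, and 4 were 10 kb or longer, so the count lies near the background. They were AP-2alpha (126), an endocytic adaptor subunit that acts with Numb, N (104.5, with the TSS of CG18508 nearest), the Notch receptor, and jar (96.8), a myosin. In the same list, pon (45.6) and stau (39.98) did not have one. Of 11 other neuroblast transcription factor genes, 4 had such a summit, namely chinmo (92.9), klu (90.5), D (69.8) and Dr (64.8). The median over the 11 was 50.5, and 4 of the 11 were 10 kb or longer, so this count also lies near the background. The proneural ase was at 46.8, and sna, which encodes Snail, at 30.8. None of the 6 genes of the temporal series, hb, Kr, nub, pdm2, cas and svp, had a thresholded summit, a small count in which 3 genes were 10 kb or longer, and their highest signals ran from 25.8 to 37.2. Over the 4 lists, 15 of 37 genes had one, 19 of the 37 being 10 kb or longer, so the count is not read as raised. A high-ranking region in each replicate, not always at a shared position, was present at 12, against 21.3% of all genes. No such share for long genes alone is given.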

How the data were processed

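Chromatin immunoprecipitation was measured in 2 replicates of 1 group. Per the labels and the notes deposited with the samples, relaxed regions were derived from alignments and a control (not analysed here) in dm6, and the thresholded list from the relaxed lists of both replicates and of the pool. Sources used here do not give the aligner, the caller or the threshold. The authors deposited for each region a signal, used here to describe and rank regions, and a −log10 q, which goes no higher than 3.54 in pooled regions. The lists hold no read counts, so depth per sample is unknown. dm3 lists were not used, since no dm3 annotation was at hand.

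Genes and TSSs came from Ensembl release 115 (BDGP6.54), sequence from RefSeq's Release 6. Replicate summits were matched to pooled summits by the nearest within 200 bp, and 1 replicate region may match several pooled ones. Motifs were searched on both strands with Python 3.11.15, pandas 2.3.3 and scipy 1.17.1. The counting and motif functions were tested on made-up positions and sequence with known answers. The members and gene lists were chosen with earlier results of these data known, so no test was made and intervals cover counting error only. All members are named, with every thresholded region, the highest pooled region and, at genes with over 10 pooled regions, the 3 highest; from each other list, the 3 highest thresholded genes are named with others added after values were seen.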

Additional observations from a re-analysis of the deposited data

How the results depend on the processing

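Of the 9 genes, 7 had a thresholded summit also within 1000 bp (16.1% of all genes), within 10000 bp (39.6%), by nearest TSS (11.5%) and with pooled regions of q 0.01 or less; 6 had one in the gene span alone (6.53%) and 5 among the 1000 highest regions (16.8%). Leaving out a replicate gave 5 to 7 genes. No share over all genes is given for a single replicate, or for q of 0.01 or less, which admits 3604 pooled regions. The 13 summits became 8 by nearest TSS, 6 among the 1000 highest, 20 with q of 0.01 or less, and 8 to 14 without a replicate. Regions found in both replicates were 28.3% within 50 bp, 60.8% within 500 bp and 59.2% by overlap of 1 bp, where all pooled regions gave 21.3%, 53.2% and 51.4%. The median highest signal was 35.9 to 50.9 without a replicate, on the scale of single lists. Density per 10 kb was 3.55 in the span, 3.79 within 1000 bp, 3.98 within 10000 bp and 3.78 to 3.84 without a replicate. CAGCTG was at 3 summits in 51 bp and 5 within 100 bp on either side, where 6.03% and 17.8% of all thresholded summits held it. Any CANNTG was at 7 and 10 of the 13 in the same windows, where 24.4% and 67.3% of all thresholded summits held it. The cause of these changes was not tested beyond the fewer or more regions that each setting admits. No paired analysis was possible because there is 1 group. Depth is unknown, so a missing region at esg or dpn does not show absence of binding.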
